A study of Xenopus laevis with 3 samples.

Results

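The nuclear genes of the mitochondrial respiratory chain were followed in heads of Xenopus laevis tadpoles in which the kinase MLTK or the transcription factor Sox6 had been targeted with a morpholino, an antisense oligonucleotide that blocks use of an mRNA. Members were all probe sets whose single gene symbol begins with nduf, uqcr, cox4 to cox8 or atp5, or is sdha, sdhb, sdhc or sdhd. The rule found 101 of 15495 probe sets with 1 symbol, which made 84 of 11303 genes when homeologs were kept apart and 61 gene names when they were joined. X. laevis is an allotetraploid frog, and many of its genes exist as a pair of homeologs, written .L and .S for the longer and shorter chromosomes of each pair. The rule used names only and no measured value.

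The 3 groups were heads of embryos injected with CoMO, with xMLTK-MO or with xSox6-MO, and each group had 1 array. Every embryo had received 10 ng of its morpholino in each cell at the 4-cell stage, was raised at 22 °C, and its head was taken for total RNA at 72 hours, at about stage 41. The series' title concerns MLTK in chondrogenesis, the formation of cartilage. CoMO, whose name the labels do not spell out, was taken as the reference. With 1 array a group there is no spread between embryos to set a difference against, so no test was run, no p-value is given, and each value describes these arrays only. The sources used here do not say how many heads were pooled or whether the groups shared a clutch. Both morphant contrasts with CoMO use its single array. The mRNA of neither target was checked, since 0 genes measured here carried the name map3k20 (MLTK) or sox6.

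The arrays had median intensities of 92.7 (CoMO), 91.1 (xMLTK-MO) and 89.8 (xSox6-MO). The brightest of 23 negative control probe sets, which match no frog transcript, had log2 intensities of 4.54, 4.71 and 4.39. Between 71.3% and 73.7% of all probe sets were above these controls on an array. Above them on at least 1 array were 28 of 28 measured neuron genes, 14 of 14 cartilage genes and 22 of 25 photoreceptor genes, but also 19 of 20 liver and 17 of 19 erythrocyte genes, so these counts do not single out head tissue. As a measure of RNA quality, the probe set at the 3' end of gapdh exceeded that at its 5' end by 0.89, 0.99 and 1.11 on the log2 scale, in the same order of arrays. The same measure was 2.41, 3.10 and 2.49 for ef1a, so gapdh and ef1a did not order the arrays alike. For actin the gap was 11.61, 11.63 and 11.38. It was wider than the range from the brightest negative control to the brightest probe set of each array. The 5' probe set of actin therefore lay under that control, and its gap was not read as RNA quality.

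The respiratory chain sits in the inner mitochondrial membrane. Complex I takes electrons from NADH and complex II, succinate dehydrogenase, takes them from succinate, complex III passes them to cytochrome c, and complex IV, cytochrome c oxidase, passes them to oxygen. Complexes I, III and IV pump protons, and complex V, the ATP synthase, uses the proton gradient to make ATP. Tissues with a high demand for ATP, such as muscle, brain and photoreceptors, are rich in these complexes, and most of the subunits are encoded in the nucleus, as are all genes described here.

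Respiratory chain genes were bright and nearly level across the 3 arrays. Their mean log2 intensity over the arrays ran from 7.18 to 13.47 with a median of 11.11. All 84 genes were among the 7258 that reached the level filter, a mean log2 intensity of 6.51. Of their 101 probe sets, 97 were above the negative controls on all 3 arrays. The median over the 84 genes was 11.17 in CoMO, 11.07 in xMLTK-MO and 11.11 in xSox6-MO. Differences taken gene by gene ordered the morphant arrays the other way, with medians against CoMO of -0.04 in xMLTK-MO and -0.11 in xSox6-MO. Intensities compare a gene between arrays and not genes with each other, because probes differ in brightness.

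**Figure D1:**
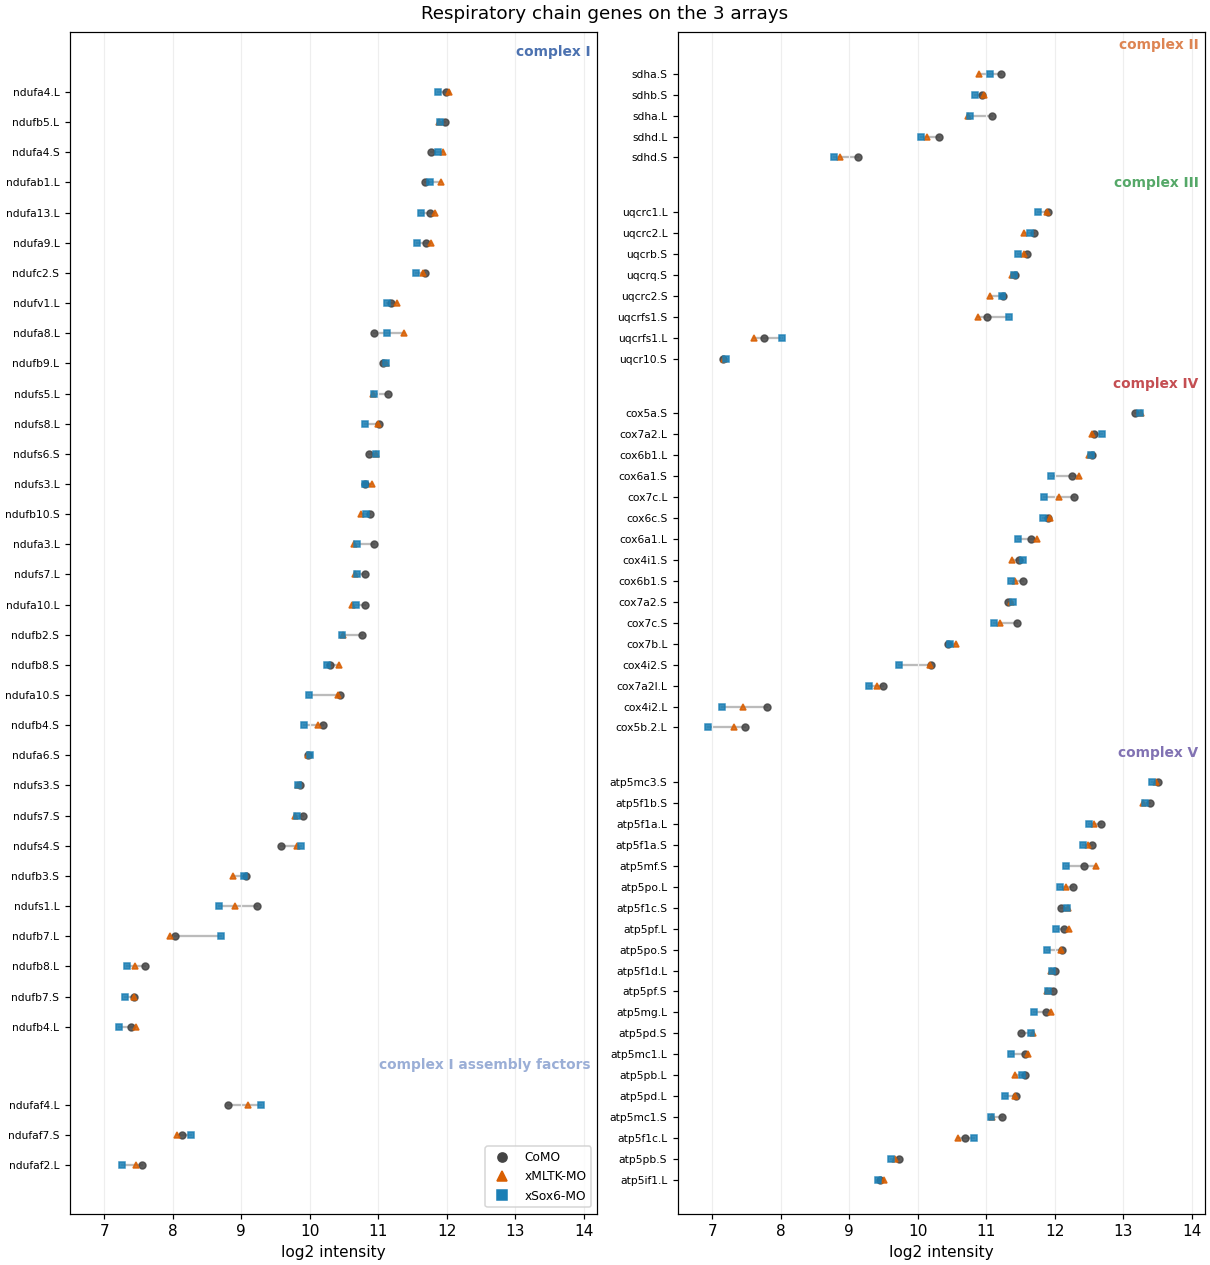
Log2 intensity (x axis) of each of the 84 respiratory chain genes (rows, grouped by complex) on the CoMO (grey circle), xMLTK-MO (orange triangle) and xSox6-MO (blue square) arrays, with a grey line from the lowest to the highest value. The points of most genes lie nearly on top of each other, and the widest lines include those of ndufb7.L and cox4i2.L.

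In xMLTK-MO against CoMO, 0 of 84 respiratory chain genes were at least 1.5-fold lower and 0 at least 1.5-fold higher, where 4.13% and 4.15% of all genes at the level filter were. Differences ran from -0.35 to 0.44 on the log2 scale. The median was -0.04, beside -0.02 over all genes. Of the 84 genes, 54 (64.3%) were lower by any amount, beside 53.1% of all genes, and 81 (96.4%) lay within 1.25-fold, beside 74.3%. The middle of the list therefore lay 0.02 below that of all genes.

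In xSox6-MO against CoMO, 1 of 84 genes was at least 1.5-fold lower and 1 at least 1.5-fold higher, beside 4.77% and 4.41% of all genes. The genes were cox4i2.L and ndufb7.L. The median was -0.11, beside -0.01 over all genes, and differences ran from -0.66 to 0.67. Of the 84 genes, 63 (75.0%) were lower, beside 50.9% of all genes, and 72 (85.7%) lay within 1.25-fold, beside 71.2%. Summed over the 84 genes, intensity was 94.2% of that in CoMO in xSox6-MO and 98.6% in xMLTK-MO. Over all genes at the level filter it was 100.4% in xSox6-MO and 98.9% in xMLTK-MO.

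The morphant arrays were also compared with each other, a contrast that does not use the CoMO array. The list had a median of 0.07 for xMLTK-MO minus xSox6-MO, beside -0.01 over all genes. Of the 84 genes, 31 (36.9%) were lower in xMLTK-MO, beside 51.9% of all genes, and 76 (90.5%) lay within 1.25-fold, beside 81.2%. In this contrast 1 gene, ndufb7.L, was at least 1.5-fold lower and 0 were at least 1.5-fold higher, beside 1.71% and 2.47% of all genes. No member reached a 2-fold difference in any of the 3 contrasts, where 2.07% (xMLTK-MO minus CoMO), 2.04% (xSox6-MO minus CoMO) and 0.716% (xMLTK-MO minus xSox6-MO) of all genes did, in either direction.

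Because bright probe sets vary less between arrays, the list was also set beside 1186 genes with a mean log2 intensity of at least 10, which include 63 of the members. Among these bright genes 53.2% (xMLTK-MO) and 49.2% (xSox6-MO) were below CoMO, and 54.6% were lower in xMLTK-MO than in xSox6-MO. The 63 bright members were lower in 39 cases (61.9%), 49 cases (77.8%) and 22 cases (34.9%). Within 1.25-fold lay 82.3%, 77.6% and 86.6% of the bright genes in the 3 contrasts, and 96.8%, 90.5% and 92.1% of the bright members. No bright member was at least 1.5-fold lower or higher in any contrast. Of the 1186 bright genes 34, 47 and 13 were at least 1.5-fold lower in the 3 contrasts, and 23, 28 and 21 higher. The members past 1.5-fold, cox4i2.L and ndufb7.L, had 1 probe set each and lower mean log2 intensities, of 7.46 and 8.23.

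The xSox6-MO array held the lowest of the 3 values for 45 of the 84 genes (53.6%), beside 32.5% of all genes. The xMLTK-MO array held it for 26 (31.0%), beside 32.8%, and the CoMO array for 13 (15.5%), beside 34.8%. The CoMO array held the highest value for 46 members (54.8%), beside 38.7% of all genes.

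**Figure D2:**
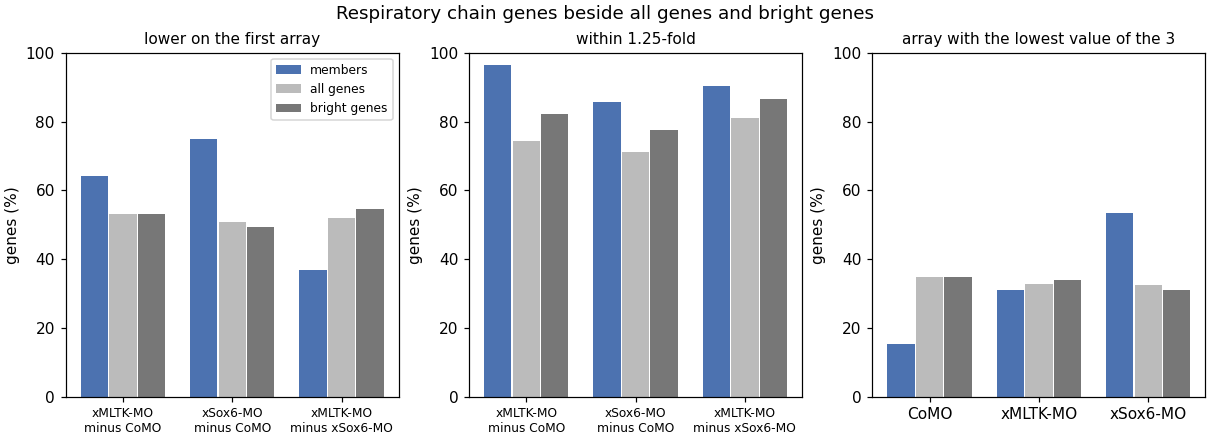
Percent of genes (y axis, from 0 to 100) lower on the first-named array (left), within 1.25-fold (middle) and lowest on each array (right), for the 84 respiratory chain genes (blue), the 7258 genes at the level filter (light grey) and the 1186 bright genes (dark grey). For genes below CoMO in xSox6-MO the blue bar is at 75.0% beside 50.9% of all genes, and for genes lowest on xSox6-MO it is at 53.6% beside 32.5%.

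The direction of these small medians depends on how the arrays are scaled. Centring the arrays on hybridisation controls moved the median of all genes to 0.08 in xMLTK-MO and 0.18 in xSox6-MO, and turned the list's medians to 0.06 and 0.07. Relative to the median of all genes the list was at -0.02 (xMLTK-MO) and -0.11 (xSox6-MO) under either scaling. Centring adds the same constant to every gene of a contrast, so this distance could not change. Counts of lower genes depend on the scaling in the same way. Directions and such counts, above and below, are those of the deposited scaling.

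Differences of single genes can be set beside the disagreement between probe sets of a gene on the same arrays. Over 994 genes at the level filter with exactly 2 probe sets, the median gap between the differences given by the probe sets of a gene was 0.13 (xMLTK-MO minus CoMO), 0.18 (xSox6-MO minus CoMO) and 0.16 (xMLTK-MO minus xSox6-MO). Over the 13 members with several probe sets the medians were 0.08, 0.15 and 0.15. Of the 84 members 56 (66.7%), 55 (65.5%) and 55 (65.5%) had a difference no larger than the median gap over those 994 genes. The shares were 40.1%, 47.6% and 54.1% over all genes at the level filter and 50.2%, 55.6% and 60.9% over the bright genes.

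Counts of lower genes by complex can be set beside the shares of all genes at the level filter. These were 53.1% (xMLTK-MO minus CoMO), 50.9% (xSox6-MO minus CoMO) and 51.9% (xMLTK-MO minus xSox6-MO). Genes were placed in complexes by name. Complex IV thus includes cox7a2l.L, a supercomplex factor, and complex V includes atp5if1.L, an inhibitor. By name, complex I was represented by 32 genes of subunits, with ndufa4.L and ndufa4.S among them, and by 3 genes of assembly factors. Among the subunit genes 18 (56%) were lower in xMLTK-MO than in CoMO, with a median of -0.02. In xSox6-MO 24 (75%) were lower, with a median of -0.10. The gene ndufb7.L, for an accessory subunit of the membrane arm, had log2 intensities of 8.03 in CoMO, 7.96 in xMLTK-MO and 8.70 in xSox6-MO. It was 1.59-fold higher in xSox6-MO than in CoMO and 1.67-fold higher than in xMLTK-MO, so that xSox6-MO alone was high. Its homeolog ndufb7.S had values of 7.43, 7.43 and 7.30 and was lowest in xSox6-MO.

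The gene ndufs1.L encodes the large iron-sulfur subunit of the peripheral arm, where electrons from NADH travel. Its log2 intensities were 9.23 in CoMO, 8.92 in xMLTK-MO and 8.68 in xSox6-MO, and the CoMO value was 1.46-fold that in xSox6-MO. Its probe sets gave the same direction with unequal sizes, -0.18 and -0.91 for xSox6-MO minus CoMO and -0.24 and -0.38 for xMLTK-MO minus CoMO. The larger differences came from the dimmer probe set, at 7.65 in CoMO, and the smaller from the brighter one, at 10.81. The accessory subunit gene ndufa10.S had values of 10.44, 10.41 and 9.98, lowest in xSox6-MO by 1.38-fold against CoMO, while ndufa10.L was at 10.80, 10.62 and 10.68. The subunit genes ndufa3.L and ndufb2.S were lower on both morphant arrays, ndufa3.L by differences of -0.28 (xMLTK-MO) and -0.25 (xSox6-MO) and ndufb2.S by -0.27 and -0.29.

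Other complex I genes were higher on the morphant arrays. The largest positive difference of any member in xMLTK-MO was that of ndufa8.L, an accessory subunit gene, with 10.93 in CoMO, 11.38 in xMLTK-MO and 11.13 in xSox6-MO, or 1.36-fold higher in xMLTK-MO than in CoMO. The gene ndufab1.L, for the mitochondrial acyl carrier protein that is also a subunit of complex I, had values of 11.68, 11.92 and 11.75. The gene ndufs4.S, for a subunit whose loss in humans and mice causes a Leigh-like brain disease, was at 9.58 in CoMO, 9.82 in xMLTK-MO and 9.87 in xSox6-MO. The genes ndufa4.L and ndufa4.S keep a complex I name, although the mammalian protein is known as a subunit of cytochrome c oxidase. ndufa4.S differed from CoMO by 0.18 in xMLTK-MO and 0.11 in xSox6-MO.

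The assembly factor genes differed from each other. ndufaf4.L, for a protein that helps build complex I and does not stay in it, had log2 intensities of 8.80 in CoMO, 9.10 in xMLTK-MO and 9.28 in xSox6-MO, and was 1.39-fold higher in xSox6-MO than in CoMO. ndufaf2.L was at 7.55, 7.47 and 7.26, and ndufaf7.S at 8.13, 8.06 and 8.26. Thus the first was lowest in CoMO, and the second was lowest in xSox6-MO.

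Complex II had the lowest median of the complexes on both morphant arrays. It has 4 subunits, all encoded in the nucleus, and it is also an enzyme of the tricarboxylic acid cycle. Here 5 genes of 3 of them were measured, and sdhc was not analysed. The median difference from CoMO was -0.26 in xMLTK-MO, with 4 of 5 genes lower, and -0.26 in xSox6-MO, with 5 of 5 lower, and these contrasts share the CoMO array. Summed intensity was 86.4% (xMLTK-MO) and 86.2% (xSox6-MO) of that in CoMO, beside 98.9% and 100.4% over all genes at the level filter.

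The flavoprotein subunit gene sdha.L had log2 intensities of 11.09 in CoMO, 10.74 in xMLTK-MO and 10.76 in xSox6-MO. Its homeolog sdha.S had values of 11.21, 10.90 and 11.05. Both copies were highest in CoMO, by 1.27-fold (.L) and 1.24-fold (.S) over xMLTK-MO and by 1.26-fold and 1.12-fold over xSox6-MO. The membrane anchor gene sdhd.L was at 10.31, 10.14 and 10.05, and sdhd.S at 9.13, 8.87 and 8.78, again highest in CoMO. Both probe sets of sdhd.S were lower on each morphant array, by -0.20 and -0.31 in xMLTK-MO and by -0.35 and -0.35 in xSox6-MO. The iron-sulfur subunit gene sdhb.S was nearly level, with 10.94, 10.97 and 10.84.

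By its median, complex III was the complex in which the morphant arrays differed from each other in the opposite direction to the list as a whole. Of its 8 genes 6 (75%) were lower in xMLTK-MO than in xSox6-MO, beside 51.9% of all genes, with a median of -0.06. That count includes uqcr10.S, whose sign depended on its dim probe sets. Against CoMO the median was -0.09 in xMLTK-MO, with 7 of 8 lower, and -0.02 in xSox6-MO, with 5 of 8 lower. The Rieske iron-sulfur protein, encoded by uqcrfs1, passes electrons from ubiquinol towards cytochrome c. The gene uqcrfs1.S had log2 intensities of 11.01 in CoMO, 10.89 in xMLTK-MO and 11.33 in xSox6-MO. uqcrfs1.L had 7.76, 7.61 and 8.03. Averaged over its probe sets, each copy was highest in xSox6-MO and lowest in xMLTK-MO. On these averages xSox6-MO was above xMLTK-MO by 1.36-fold (.S) and 1.33-fold (.L).

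The probe sets of uqcrfs1.S did not agree in sign, and those of uqcrfs1.L did not agree in size. For xSox6-MO minus CoMO the probe sets of the .S copy gave 0.69 and -0.04, the second of them a type that can bind several transcripts. That second probe set was the brighter and was highest in CoMO, with 12.18 in CoMO, 12.08 in xMLTK-MO and 12.14 in xSox6-MO. The .L copy gave 0.49 from a bright probe set and 0.05 from a dim one that was not above the negative controls on every array. Without the dim probe set uqcrfs1.L was at 10.96 in CoMO, 10.77 in xMLTK-MO and 11.45 in xSox6-MO. The gene uqcr10.S, for a small subunit, had 6 probe sets whose differences spread over 0.995 for xSox6-MO minus CoMO, and 2 of them were below the negative controls on all arrays. Its mean of 7.15, 7.17 and 7.21 thus averages probe sets that disagree. Without those 2 dim probe sets uqcr10.S was at 8.87 in CoMO, 8.89 in xMLTK-MO and 8.86 in xSox6-MO. Its difference then went from -0.04 to 0.03 for xMLTK-MO minus xSox6-MO and from 0.05 to -0.01 for xSox6-MO minus CoMO. The counts for complex III use the mean over all its probe sets. The core protein genes uqcrc2.L and uqcrc2.S were lower in xMLTK-MO than in CoMO by differences of -0.14 and -0.19, and were at -0.06 and -0.02 in xSox6-MO.

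Complex IV had the widest spread of differences in xSox6-MO among the 5 complexes. Of its 16 genes 11 were lower than in CoMO, with a median of -0.18 and an SD over genes of 0.24. In xMLTK-MO 10 of 16 were lower, with a median of -0.04 and an SD over genes of 0.14. In vertebrates cox4i2 encodes an alternative form of the COX4 subunit, known in mammals for expression in lung and for regulation by oxygen. cox4i2.L had log2 intensities of 7.80 in CoMO, 7.45 in xMLTK-MO and 7.15 in xSox6-MO. The CoMO value was 1.58-fold that in xSox6-MO. cox4i2.S had 10.19, 10.18 and 9.73, a value 1.38-fold lower in xSox6-MO. Both copies were lowest in xSox6-MO.

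The common form, cox4i1.S, was nearly level, at 11.48 in CoMO, 11.37 in xMLTK-MO and 11.53 in xSox6-MO. From its 1 probe set, xSox6-MO was above CoMO by 0.05, less than the median gap of 0.18 between probe sets of a gene. The gene cox5b.2.L, for a COX5B-type subunit, had 7.47, 7.32 and 6.94, with the CoMO value 1.45-fold that in xSox6-MO. The small subunit genes cox7c.L, with 12.28, 12.06 and 11.84, and cox7c.S, with 11.45, 11.21 and 11.11, were highest in CoMO and lowest in xSox6-MO. The genes of COX6A1, the form that mammals use outside heart and skeletal muscle, were highest in xMLTK-MO. cox6a1.S had 12.25 in CoMO, 12.35 in xMLTK-MO and 11.95 in xSox6-MO, or 1.32-fold more in xMLTK-MO than in xSox6-MO, and cox6a1.L had 11.65, 11.75 and 11.47.

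Other genes of complex IV were level. cox7a2.L had 12.58, 12.54 and 12.69, and cox7a2.S had 11.32, 11.36 and 11.40. These encode the form of COX7A found outside striated muscle in mammals. cox5a.S was at 13.18, 13.26 and 13.25, and cox7b.L at 10.44, 10.55 and 10.47. The striated muscle forms cox6a2, cox7a1 and cox8b, and the common form cox8a, were not analysed here, as 0 measured genes carried those names.

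Complex V genes differed little between arrays. All of its 20 genes lay within 1.25-fold of CoMO on both morphant arrays, with an SD over genes of 0.10 in xMLTK-MO and 0.11 in xSox6-MO. Within that fold lay 74.3% and 71.2% of all genes and 82.3% and 77.6% of the bright genes. The median was -0.04 in xMLTK-MO, with 13 of 20 (65%) lower, beside 53.1% of all genes. In xSox6-MO it was -0.11, with 17 of 20 (85%) lower, beside 50.9%. The xSox6-MO array held the lowest value for 13 of the 20 (65%), beside 32.5% of all genes. Summed intensity was 98.6% of that in CoMO in xMLTK-MO and 93.1% in xSox6-MO, beside 98.9% and 100.4% over all genes at the level filter.

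Within complex V the alpha subunit gene atp5f1a.L had log2 intensities of 12.67 in CoMO, 12.57 in xMLTK-MO and 12.50 in xSox6-MO. The gene atp5mf.S, for a small membrane subunit, had 12.42, 12.60 and 12.16, and was 1.36-fold higher in xMLTK-MO than in xSox6-MO with CoMO between them. atp5mc1.S, which encodes the c subunit of the rotating ring, had 11.23, 11.09 and 11.06, and its homeolog atp5mc1.L 11.57, 11.62 and 11.36. The stalk gene atp5po.L was at 12.27, 12.17 and 12.08. The central stalk gene atp5f1c went the other way in xSox6-MO, with differences from CoMO of 0.14 (.L) and 0.09 (.S), as did atp5pd.S with 0.14.

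**Figure D3:**
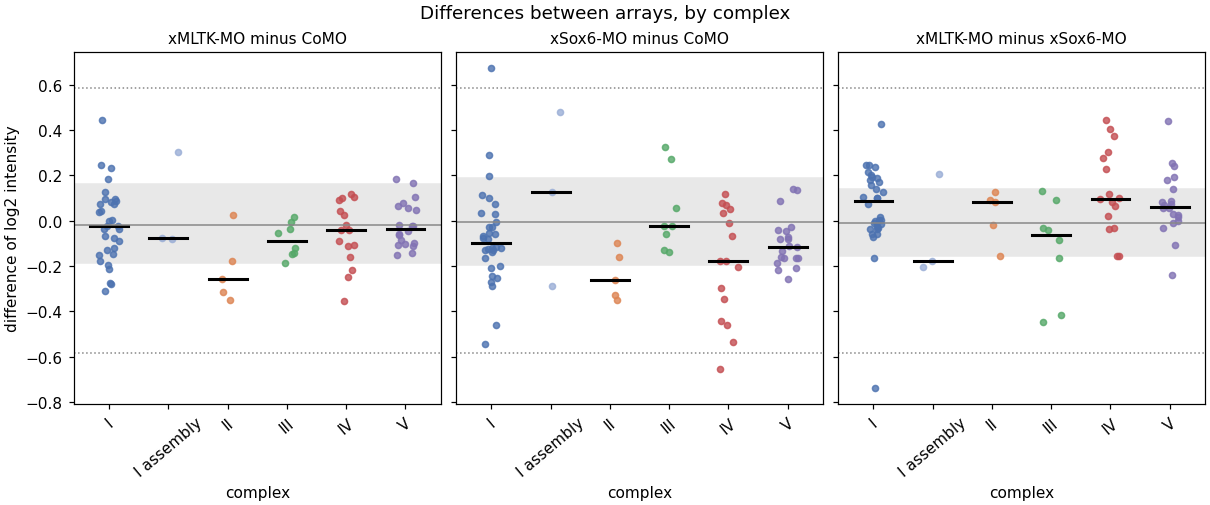
Difference of log2 intensity (y axis) for each respiratory chain gene (points), by complex (x axis), in the 3 contrasts (panels). Black bars are medians over genes, the grey band and line are the quartiles and median of all genes at the level filter, and dotted lines mark 1.5-fold. The medians of complex II are -0.26 against CoMO on both morphant arrays, and only cox4i2.L and ndufb7.L lie past a dotted line in the middle panel.

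Homeolog copies were compared next, since the copies of a gene are measured by different probe sets. Both copies were measured for 23 gene names. In xSox6-MO minus CoMO 17 pairs (73.9%) had both copies lower, 3 had both higher (atp5f1c, cox7a2 and uqcrfs1) and 3 (13.0%) had opposite signs (atp5pd, ndufa4 and ndufb7). The value of uqcrfs1.S averages probe sets of opposite sign. Over 1165 pairs of all genes at the level filter, 35.7% had both copies lower, 35.5% both higher and 28.8% opposite signs. In xMLTK-MO minus CoMO 12 of the 23 pairs (52.2%) had both copies lower, 2 (8.7%) both higher and 9 (39.1%) opposite signs. The shares of the 1165 pairs were 39.9%, 31.8% and 28.3%. In xMLTK-MO minus xSox6-MO 5 of the 23 pairs (21.7%) had both copies lower, 12 (52.2%) both higher and 6 (26.1%) opposite signs. The shares of the 1165 pairs were 39.2%, 29.5% and 31.2%.

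The differences of the .L and .S copies had a Pearson's r of 0.54 and a Spearman's rho of 0.62 across the 23 pairs in xSox6-MO minus CoMO, and 0.44 and 0.39 in xMLTK-MO minus CoMO. Over the 1165 pairs they were 0.59 and 0.56 in xSox6-MO, and 0.65 and 0.60 in xMLTK-MO. These describe genes on shared arrays, which are not independent replicates, and copies alike in sequence may share RNA bound by their probes. The median gap between copies was 0.09 in xSox6-MO and 0.08 in xMLTK-MO, beside 0.17 and 0.16 over the 1165 pairs. The pairs with the largest gap from CoMO on either array were ndufb7 with 0.80, ndufa10 with 0.34, cox4i2 with 0.34, atp5pd with 0.30 and ndufb8 with 0.27. For ndufb8.L, 1 of its probe sets was not above the negative controls, and without it the gene was at 10.99 in CoMO, 10.77 in xMLTK-MO and 10.74 in xSox6-MO. Its difference in xMLTK-MO was then -0.22 and not -0.15, beside 0.13 for ndufb8.S. The dim probe set thus narrowed the gap of ndufb8 given here, and the ranking includes that probe set.

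Taken by subgenome, the 43 .L genes had a median of -0.05 in xMLTK-MO and -0.13 in xSox6-MO, and the 41 .S genes -0.04 and -0.08. Of the .L genes 34 (79.1%) were below CoMO in xSox6-MO, and of the .S genes 29 (70.7%), beside 50.9% of all genes at the level filter. Shares over all .L or all .S genes were not computed. Whether the subgenomes differ was not tested.

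**Figure D4:**
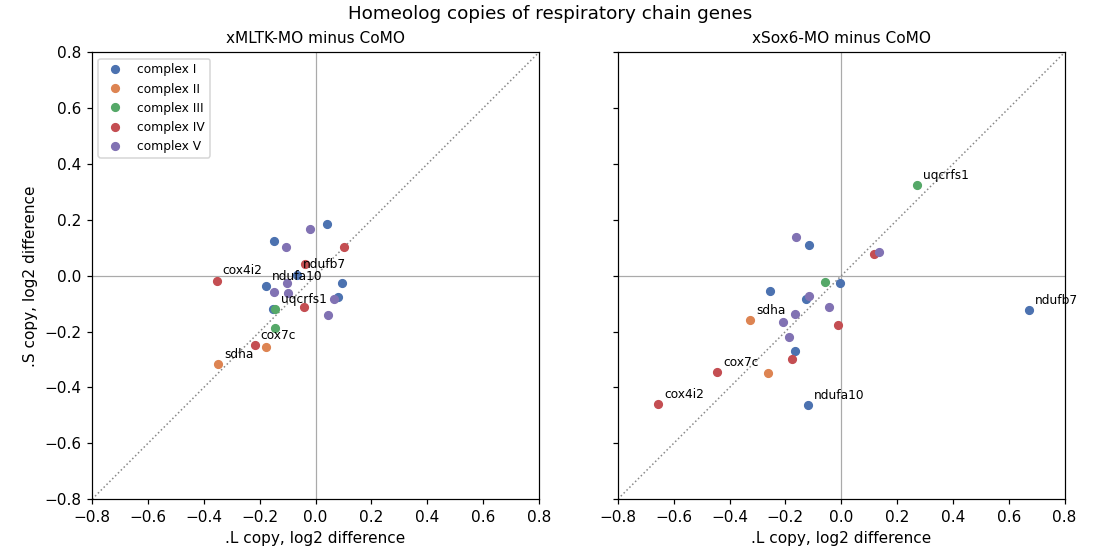
Log2 difference from CoMO of the .S copy (y axis) against that of the .L copy (x axis) for 23 respiratory chain genes, in xMLTK-MO (left) and xSox6-MO (right), coloured by complex, with a dotted line of equality. In xSox6-MO 17 of 23 points lie below 0 on both axes, and ndufb7 lies far to the right, at 0.67 for .L and -0.12 for .S.

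Other mitochondrial gene lists were described in the same way. Their counts of lower genes can be set beside 53.1% (xMLTK-MO) and 50.9% (xSox6-MO) of all genes at the level filter. Genes of fatty acid oxidation, which feeds electrons into the chain, had a median of -0.19 in xMLTK-MO and -0.30 in xSox6-MO over 17 genes at the level filter, and 16 of 17 were lower than in CoMO on each array. Among these 17 genes 2 were at least 1.5-fold lower in xMLTK-MO and 3 in xSox6-MO, beside 4.13% and 4.77% of all genes at the level filter. Genes of the tricarboxylic acid cycle and the enzymes around it had medians of -0.13 and -0.15 over 21 genes. Of these 14 (66.7%) and 16 (76.2%) were lower. Electron carriers and genes of ATP export had -0.06 and -0.13 over 13 genes, with 8 (61.5%) and 11 (84.6%) lower. Among these the ADP/ATP carrier gene slc25a4.L was at 8.65 in CoMO, 7.72 in xMLTK-MO and 6.78 in xSox6-MO, while its paralog slc25a5.L was at 13.68, 13.79 and 13.88, and cytochrome c (cycs.S) at 12.73, 12.75 and 12.80.

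Genes for making and importing mitochondrial proteins were described next. The mitochondrial ribosome list had medians of -0.03 in xMLTK-MO and 0.01 in xSox6-MO over 47 genes, and the import list 0.05 and 0.04 over 30 genes. Regulators of mitochondrial biogenesis had 0.00 and 0.13 over 14 genes. In xSox6-MO 11 of the 14 were higher than in CoMO and 3 (21.4%) lower, beside 50.9% of all genes lower. The receptor gene esrra.L, a regulator of oxidative genes in mammals, went the other way, with 9.39 in CoMO, 8.87 in xMLTK-MO and 8.87 in xSox6-MO. Assembly genes of the chain outside the nduf names had -0.13 and -0.09 over 25 genes. Glycolysis genes had 0.03 and -0.18 over 23 genes, and creatine kinase genes 0.14 and -0.08 over 4 genes.

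Markers of tissues rich in mitochondria also differed between the arrays. In bulk RNA, fewer cells of a type and less RNA per cell cannot be told apart. Of all genes at the level filter 53.1% (xMLTK-MO) and 50.9% (xSox6-MO) were lower than in CoMO. The summed intensity of 20 slow and cardiac-type muscle genes was 33330 in CoMO, 22505 in xMLTK-MO and 22644 in xSox6-MO. Of the 16 at the level filter, 12 were lower and 4 higher on each morphant array. Among those higher on both were nppb.L (1.46 in xMLTK-MO and 1.26 in xSox6-MO), tnni3.L (0.27 and 0.66) and tnni3.S (0.29 and 0.52). For 27 fast skeletal muscle genes the sums were 62803, 55125 and 51293, with 15 (71.4%) and 20 (95.2%) of 21 lower. For 25 photoreceptor genes they were 19247, 18883 and 11735, with 13 (65%) and 20 (100%) of 20 lower. In xMLTK-MO 7 of these 20 were higher, among them arr3.L at 0.40, so the sum hides differences in both directions. Medians in xMLTK-MO and xSox6-MO were -0.41 and -0.50 for the slow and cardiac-type list. They were -0.20 and -0.28 for the fast muscle list and -0.18 and -0.76 for the photoreceptor list. In these lists 2, 1 and 3 genes were not above the negative controls on any array.

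The neuron list had medians of -0.02 in xMLTK-MO and -0.03 in xSox6-MO over 24 genes, with members on both sides. In xMLTK-MO 2 of the 24 were at least 1.5-fold higher than in CoMO, beside 4.15% of all genes. They were the neurofilament genes nefl.L at 0.80 and nefm.L at 0.65. In xSox6-MO 1 of the 24 was at least 1.5-fold lower, the synapsin gene syn1.S at -0.70, beside 4.77% of all genes, a similar share. Medians in the same order were -0.30 and -0.91 for lens (12 genes), -0.19 and -0.24 for erythrocytes (12), 0.13 and 0.21 for epidermis (17), 0.14 and -0.01 for liver (18) and -0.57 and -0.93 for cartilage (12). The part of these tissues in the differences of the respiratory chain genes was not tested.

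**Figure D5:**
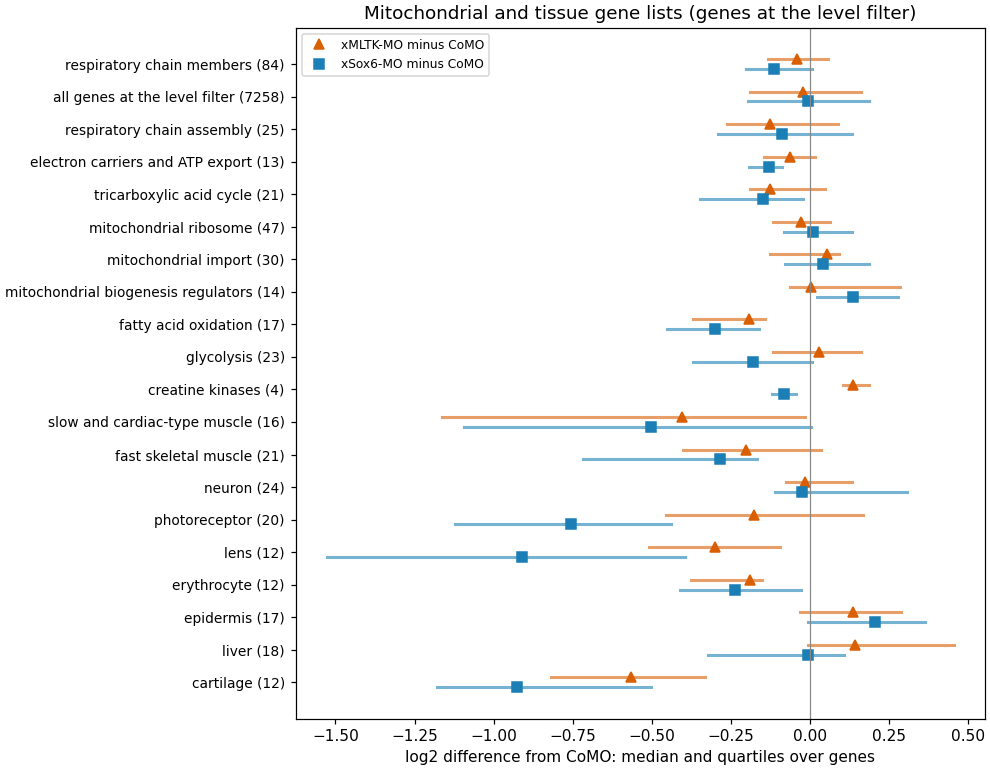
Log2 difference from CoMO (x axis) for the respiratory chain genes, all genes at the level filter, and each mitochondrial or tissue list (rows, with the number of genes), in xMLTK-MO (orange triangles) and xSox6-MO (blue squares). Points are medians and lines join the quartiles over genes. The respiratory chain lies at -0.04 and -0.11, beside -0.02 and -0.01 for all genes, and fatty acid oxidation at -0.19 and -0.30.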

How the data were processed

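RNA from 3 groups of heads was hybridised to Affymetrix Xenopus laevis Genome 2.0 arrays, 1 per group. The authors deposited 1 linear intensity per probe set, and RMA is named in the submitters' processing notes. Scans were handled in GeneChip operating Software 1.4 and then GeneSpring GX 11.0.2, according to the design text. RMA as usually run corrects background, normalises by quantiles and summarises probes, which would hide a change of all transcripts together. Here log2 was taken and the probe sets of a symbol were averaged, with Python 3.11.15 and pandas 2.3.3, in code tested on simulated data. Of 32635 probe sets, 96 were controls, 279 had several symbols and 16851 had none. Symbols came from the platform annotation. Gene identifiers of 101 of 101 member probe sets matched a RefSeq table of assembly Xenopus_laevis_v10.1, with 0 symbols changed, and no coordinates are given because the annotation's build is not named. The level filter was the median of all probe sets. Differences were counted at 1.5-fold and 2-fold. No test was run, and the number of arrays limits the precision.

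The naming rule took members with the largest and smallest differences overall (10 each per contrast) and by complex (3 each). It also took COX forms with tissue partners and the 5 homeolog pairs with the largest gap. It gave 51 members, and some of them, such as ndufs5.L and uqcrb.S, are not described above. Members named outside the rule include ndufa4.L, cox7a2l.L and atp5if1.L. Genes of the other lists were named after their values were seen. Members and lists were chosen with earlier results of these data known.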

Additional observations from a re-analysis of the deposited data

How the results depend on the processing

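The list's median and its count at least 1.5-fold lower were recomputed in each contrast with the brightest probe set per gene, without probe sets of shared probes, with arrays centred on hybridisation or poly-A controls, after renewed quantile normalisation, with 16 added before log2, with dim values raised to the negative controls, without a level filter, over probe sets, and with homeologs averaged. A further setting, chosen after seeing the data, used only probe sets above the negative controls on all 3 arrays. The differences of the 51 members that met the naming rule were recomputed too, except for the last 3 of the settings first listed. Without shared probes 1 of these members had no value. Of 153 such differences, 153 moved with poly-A centring and 9 with the brightest probe set. Without shared probes 2 moved, without dim probe sets 2, and with dim values raised 1. Shifts as small as those from hybridisation centring were not counted as moves. The count of the 84 members lower by any amount was recomputed too, and it turned with centring on hybridisation and poly-A controls. It went from 54 to 29 and 6 for xMLTK-MO minus CoMO and from 63 to 23 and 3 for xSox6-MO minus CoMO. For xMLTK-MO minus xSox6-MO it went from 31 to 44 and 71. Values by complex, the remaining counts, the homeolog pairs and the other lists were not recomputed. Centring alone turned medians: to 0.059 (hybridisation) and 0.22 (poly-A) for xMLTK-MO minus CoMO, to 0.067 and 0.36 for xSox6-MO minus CoMO, and to -0.011 and -0.15 for xMLTK-MO minus xSox6-MO, because it adds a constant to every gene. The other settings gave -0.05 to -0.03, -0.12 to -0.08 and 0.06 to 0.09.

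The count of members at least 1.5-fold lower stayed at 0 for xMLTK-MO minus CoMO in all settings. Over all genes that count ran from 114 of 7258 (poly-A centring) to 441 of 11303 (no level filter). For xSox6-MO minus CoMO the member count moved from 1 to 0 with either centring and with homeologs averaged, and to 2 over probe sets. The count over all genes moved from 346 of 7258 to 166 (hybridisation) and 63 (poly-A). It was 272 of 5860 with homeologs averaged and 441 of 9617 over probe sets. For xMLTK-MO minus xSox6-MO the member count moved from 1 to 2 with the brightest probe set, without shared probes and without dim probe sets. It moved to 3 with poly-A centring and over probe sets, and to 0 with homeologs averaged. The count over all genes was 124 of 7258, and 507 with poly-A centring. It was 191 of 9617 over probe sets and 84 of 5860 with homeologs averaged. With the brightest probe set it was 144 of 7884, without shared probes 122 of 6793 and without dim probe sets 131 of 7681. No paired analysis was possible because each group had 1 array, and no array could be left out.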
